A study of Mus musculus with 20 samples.

Results

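The mitochondrial ribosomal protein genes of the mouse were followed in liver RNA from 3 groups of libraries. Members were the protein-coding genes of the deposited table whose symbol in GENCODE release M21 begins with Mrpl or Mrps and a digit. There were 78 such genes among the 32400 genes of the table, 49 named for the large subunit and 29 for the small subunit. All 78 passed the filter on low counts that left 13667 genes for testing. By symbol Mrps30 and Mrps18a count with the small subunit here, although solved structures place both proteins in the large one. The members lay on 17 chromosomes, with 11 of them on chromosome 11.

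As background, the mitochondrial ribosome translates the few proteins that the mitochondrial genome still encodes, all of them parts of the respiratory chain and ATP synthase. Its RNA comes from the mitochondrial genome, but every one of its proteins is encoded in the nucleus, made by cytosolic ribosomes and imported. The small subunit binds the messenger RNA and reads codons, and the large subunit joins amino acids and releases the chain through an exit tunnel at the inner membrane. Some of the proteins descend from the bacterial ribosome, and others exist only in mitochondria. Liver is rich in mitochondria, and oxidation of fatty acids there depends on the respiratory chain that this ribosome helps to build.

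In 8 libraries, called HFHF Flcn gRNA, mice ate a diet high in fat and fructose (HFHF) and had been given a guide RNA (gRNA) against Flcn in the adeno-associated virus AAV8. In 7 libraries, called HFHF control, mice on that diet had been given only the vehicle, PBS. In 5 libraries, called chow control, mice ate chow and had no treatment. All mice were of the C57BL/6NTac strain, and age, sex, nuclease and the promoter in the virus are not analysed here. No group received a virus without the Flcn guide, so the virus and the guide cannot be told apart.

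Flcn encodes folliculin, which acts on Rag GTPases and so holds back the MiT/TFE transcription factors. Its transcript averaged 17.8 ± 2.40 CPM in gRNA libraries, 20.7 ± 2.98 CPM in HFHF control and 22.2 ± 6.03 CPM in chow control (SD). CPM are counts scaled to the size of each library. Flcn did not pass the test between gRNA and HFHF control (log2 fold change -0.22, SE 0.12, adjusted p = 0.140 in edgeR's quasi-likelihood test), and an edited gene can keep its transcript. Total estimated counts were 13974379 to 19586576 per gRNA library, 15244760 to 18194089 per HFHF control library and 14131976 to 16285324 per chow library. The 59 pairs of libraries within a group each differed beyond counting noise, with a chi-square of at least 12.3 per degree of freedom. Nothing in the labels ties each library to its own animal, so the p-values reflect spread among libraries, which may be technical. The title of gRNA replicate 8 differs from all others in 1 field, which may mark a batch. Replicate 8 is the only library with its value of that field, so such a batch and the library itself cannot be told apart. The other gRNA libraries share the field with both control groups, and results without replicate 8 are given below.

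Markers of liver cell types were set beside the members, since in bulk liver fewer cells of a type and less RNA per cell cannot be told apart. The 10 hepatocyte markers summed to 48307 to 81665 CPM in gRNA libraries, 40977 to 64507 CPM in HFHF control and 71932 to 95806 CPM in chow control. Between gRNA and HFHF control 4 of the 10 were called higher and 0 lower (2 higher without gRNA replicate 8 or with the other scalings), and between HFHF control and chow 0 were called higher and 9 lower (4 with library size alone). The 8 markers of monocyte-derived macrophages summed to 85.0 to 216 CPM in gRNA libraries, 151 to 371 CPM in HFHF control and 28.6 to 46.5 CPM in chow, with 7 of 8 lower with the gRNA and 8 of 8 higher with the diet. The 8 stellate cell markers summed to 233 to 330 CPM in gRNA libraries, 460 to 626 CPM in HFHF control and 185 to 231 CPM in chow, with 6 of 8 lower with the gRNA and 8 of 8 higher with the diet. Of the tested cholangiocyte markers, 4 of 4 were lower with the gRNA and 3 of 4 higher with the diet. The cholangiocyte sums were 30.5 to 80.5 CPM in gRNA libraries, 93.0 to 227 CPM in HFHF control and 24.7 to 35.7 CPM in chow. Most of that sum was Spp1, which averaged 158 CPM in HFHF control, against 1.11 for Krt19, 1.72 for Epcam and 9.05 for Sox9. The sum therefore describes Spp1 more than the list. Spp1 is also among the 8 markers of monocyte-derived macrophages, whose sum had a median of 300 CPM in HFHF control. It therefore makes up a large part of that sum as well. Shifts of different marker lists are not read as independent of each other. The 6 sinusoidal endothelial markers summed to 122 to 216 CPM in gRNA libraries, 112 to 164 CPM in HFHF control and 126 to 156 CPM in chow, and 3 of 6 were called higher with the gRNA. The 6 Kupffer cell markers, at 161 to 351 CPM in gRNA libraries, 167 to 369 CPM in HFHF control and 91.9 to 178 CPM in chow, gave 3 higher and 1 lower with the gRNA. The 6 lymphocyte markers, at 5.47 to 13.6 CPM in gRNA libraries, 5.33 to 13.1 CPM in HFHF control and 4.23 to 5.66 CPM in chow, gave 3 higher and 3 lower. No listed marker was at 0 counts in every library. The part of these shifts in the results on the ribosomal genes was not tested.

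The members were expressed at a similar order of magnitude. Their mean level over all 20 libraries was 6.74 CPM (Mrps6) to 59.1 CPM (Mrpl12), with a median of 20.1 CPM. Levels of different genes were compared per kilobase of the longest coding transcript in the annotation and ordered by the mean over all libraries. On that scale Mrps21 was the highest, at 64.3 ± 11.6 CPM per kilobase in gRNA libraries, 63.2 ± 6.93 in HFHF control and 53.6 ± 4.38 in chow control. Mrpl42 followed at 61.6 ± 9.58, 55.2 ± 3.74 and 49.8 ± 3.15 CPM per kilobase in gRNA, HFHF control and chow libraries, and its spread overlapped that of Mrps21. Mrpl12, a protein of the stalk that recruits translation factors, was next at 49.5 ± 9.90 CPM per kilobase in gRNA libraries, 43.6 ± 2.27 in HFHF control and 39.3 ± 1.37 in chow, although in HFHF control Mrpl33 stood above it at 45.4 ± 2.99. The lowest was Mrps25 at 1.60 ± 0.161 CPM per kilobase in gRNA libraries, 1.51 ± 0.103 in HFHF control and 1.41 ± 0.0708 in chow. Mrps26 (2.10 over all libraries), Mrpl19 (2.79) and Mrpl57 (2.85) came next, and the order of Mrpl19 and Mrpl57 differed between groups. Mrps25, Mrps26 and Mrpl19 have annotated transcripts of 6073, 4278 and 5000 nt, so a shorter transcript in liver would raise their value.

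RefSeq windows of 250 bases before to 50 bases after the start (build GRCm38.p6) were found for 69 of the 78 members, in 75 windows. Mrpl13, Mrpl15, Mrpl19, Mrpl38, Mrpl4, Mrpl54, Mrps28, Mrps34 and Mrps35 had no entry. The windows of Mrps5 and Mrps27, the members with the largest rise with the gRNA and the largest fall with the diet, of Mrpl57, the only member called lower with the gRNA, and of Mrpl2, which holds a CLEAR element, are shown 5′ to 3′ on the plus strand. Capitals mark the motifs CGCANGCG (NRF1), CCGGAAG (ETS factors such as GABP), AAGATGGCG (YY1) and CACGTG (E-box, the core of CLEAR), read on either strand. For Mrpl2 the first of 3 overlapping windows is given.
Mrps5, chr2:127587176-127587475: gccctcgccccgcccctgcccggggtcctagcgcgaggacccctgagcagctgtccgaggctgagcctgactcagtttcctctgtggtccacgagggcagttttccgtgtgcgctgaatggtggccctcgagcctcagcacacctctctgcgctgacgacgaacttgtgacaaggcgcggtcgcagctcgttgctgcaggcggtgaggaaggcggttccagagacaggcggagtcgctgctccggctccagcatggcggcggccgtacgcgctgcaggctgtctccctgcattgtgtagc
Mrps27, chr13:99344536-99344835: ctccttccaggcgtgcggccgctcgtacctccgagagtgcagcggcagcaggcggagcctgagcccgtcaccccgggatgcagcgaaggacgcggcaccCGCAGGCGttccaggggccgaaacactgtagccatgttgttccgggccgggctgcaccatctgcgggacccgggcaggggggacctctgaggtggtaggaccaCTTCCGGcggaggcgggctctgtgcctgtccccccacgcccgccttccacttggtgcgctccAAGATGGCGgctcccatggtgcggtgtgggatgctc
Mrpl57, chr14:57825989-57826288: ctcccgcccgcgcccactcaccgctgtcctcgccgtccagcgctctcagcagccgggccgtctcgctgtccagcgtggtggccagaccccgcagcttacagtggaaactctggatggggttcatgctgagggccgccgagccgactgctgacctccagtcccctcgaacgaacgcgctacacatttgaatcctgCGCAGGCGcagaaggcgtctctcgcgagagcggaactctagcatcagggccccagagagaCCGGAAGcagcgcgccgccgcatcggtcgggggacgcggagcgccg
Mrpl2, chr17:46645971-46646270: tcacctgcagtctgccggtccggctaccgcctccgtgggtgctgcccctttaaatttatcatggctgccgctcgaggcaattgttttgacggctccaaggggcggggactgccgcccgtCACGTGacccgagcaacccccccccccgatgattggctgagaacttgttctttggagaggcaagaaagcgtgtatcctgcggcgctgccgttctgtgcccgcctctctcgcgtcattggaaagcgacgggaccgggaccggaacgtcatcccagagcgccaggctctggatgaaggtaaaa
The Mrps5 window held none of these motifs, Mrps27 held NRF1, ETS and YY1 matches, and Mrpl57 held NRF1 and ETS matches.

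The ETS motif CCGGAAG was in 34.7% of member windows, 16.4% of the 13434 windows of tested genes and 8.86% of all 32851 windows in the table. CGCANGCG was in 26.7% of member windows, against 15.6% and 8.21%, and its stricter form CGCATGCG, which it contains, in 9.33%, against 3.54% and 1.87%. YY1's AAGATGGCG was in 10.7%, against 2.81% and 1.40%. The E-box CACGTG was in 5 of the 69 members. By window it was in 9.33% of member windows and 9.60% of windows of tested genes, but 3 overlapping windows of Mrpl2 hold the same site. The CLEAR element TCACGTGA, the site of MiT/TFE factors, which contains the E-box, was in 2 of the 69 members, Mrpl2 and Mrps18c. It was in 1.76% of tested windows and 0.974% of all windows, and the member share of windows is not set against these because 3 overlapping windows of Mrpl2 hold the same element. The ERR motif TCAAGGTCA was in 0 of 75 member windows and 0.275% of tested windows. These shares describe letters in a window and show no binding. The median log2 fold change between gRNA and HFHF control was 0.06 for the 26 members with the ETS motif and 0.14 for the 43 without it. For CGCANGCG it was 0.14 in the 20 members with it and 0.12 in the 49 without.

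The first comparison, gRNA against HFHF control, asks how these genes differed on the diet between the Flcn guide in its virus and the vehicle. Of the 78 members, 26 were higher in gRNA libraries, 1 was lower and 51 did not pass (edgeR's quasi-likelihood test, Benjamini-Hochberg adjusted p under 0.05 over all 13667 genes). In all, 34.6% of members were called, against 38.6% of all genes tested, so the members were not called more often than other genes. They differed from the table in direction. Higher calls made up 33.3% of members against 19.6% of all genes, and lower calls 1.28% against 19.0%. The changes were small, from -0.21 to 0.46 on the log2 scale, with SEs of 0.05 to 0.12. The median was 0.12, against 0.01 for all genes, and 67 members were above 0. At an unadjusted p under 0.05, 33 members passed.

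The split rested on how libraries were scaled. With upper-quartile factors 10 members were higher and 4 lower, and with library size alone 2 were higher and 10 lower. Library size alone moved the median of all genes by -0.18, and all genes then gave 1028 higher and 5149 lower, against 2673 higher and 2597 lower with TMM factors and 1942 higher and 3196 lower with upper-quartile factors. Relative to the median of all genes, the members' median was 0.11 higher with each of the scalings. A change of scaling moves all genes nearly alike, so this distance could not show whether the split holds. Across the filters and other tests tried the distance was 0.10 to 0.13. Without gRNA replicate 8, 19 members were higher and 5 lower, and the distance to the median of all genes was 0.07. All genes then gave 2547 higher and 2740 lower.

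**Figure D1:**
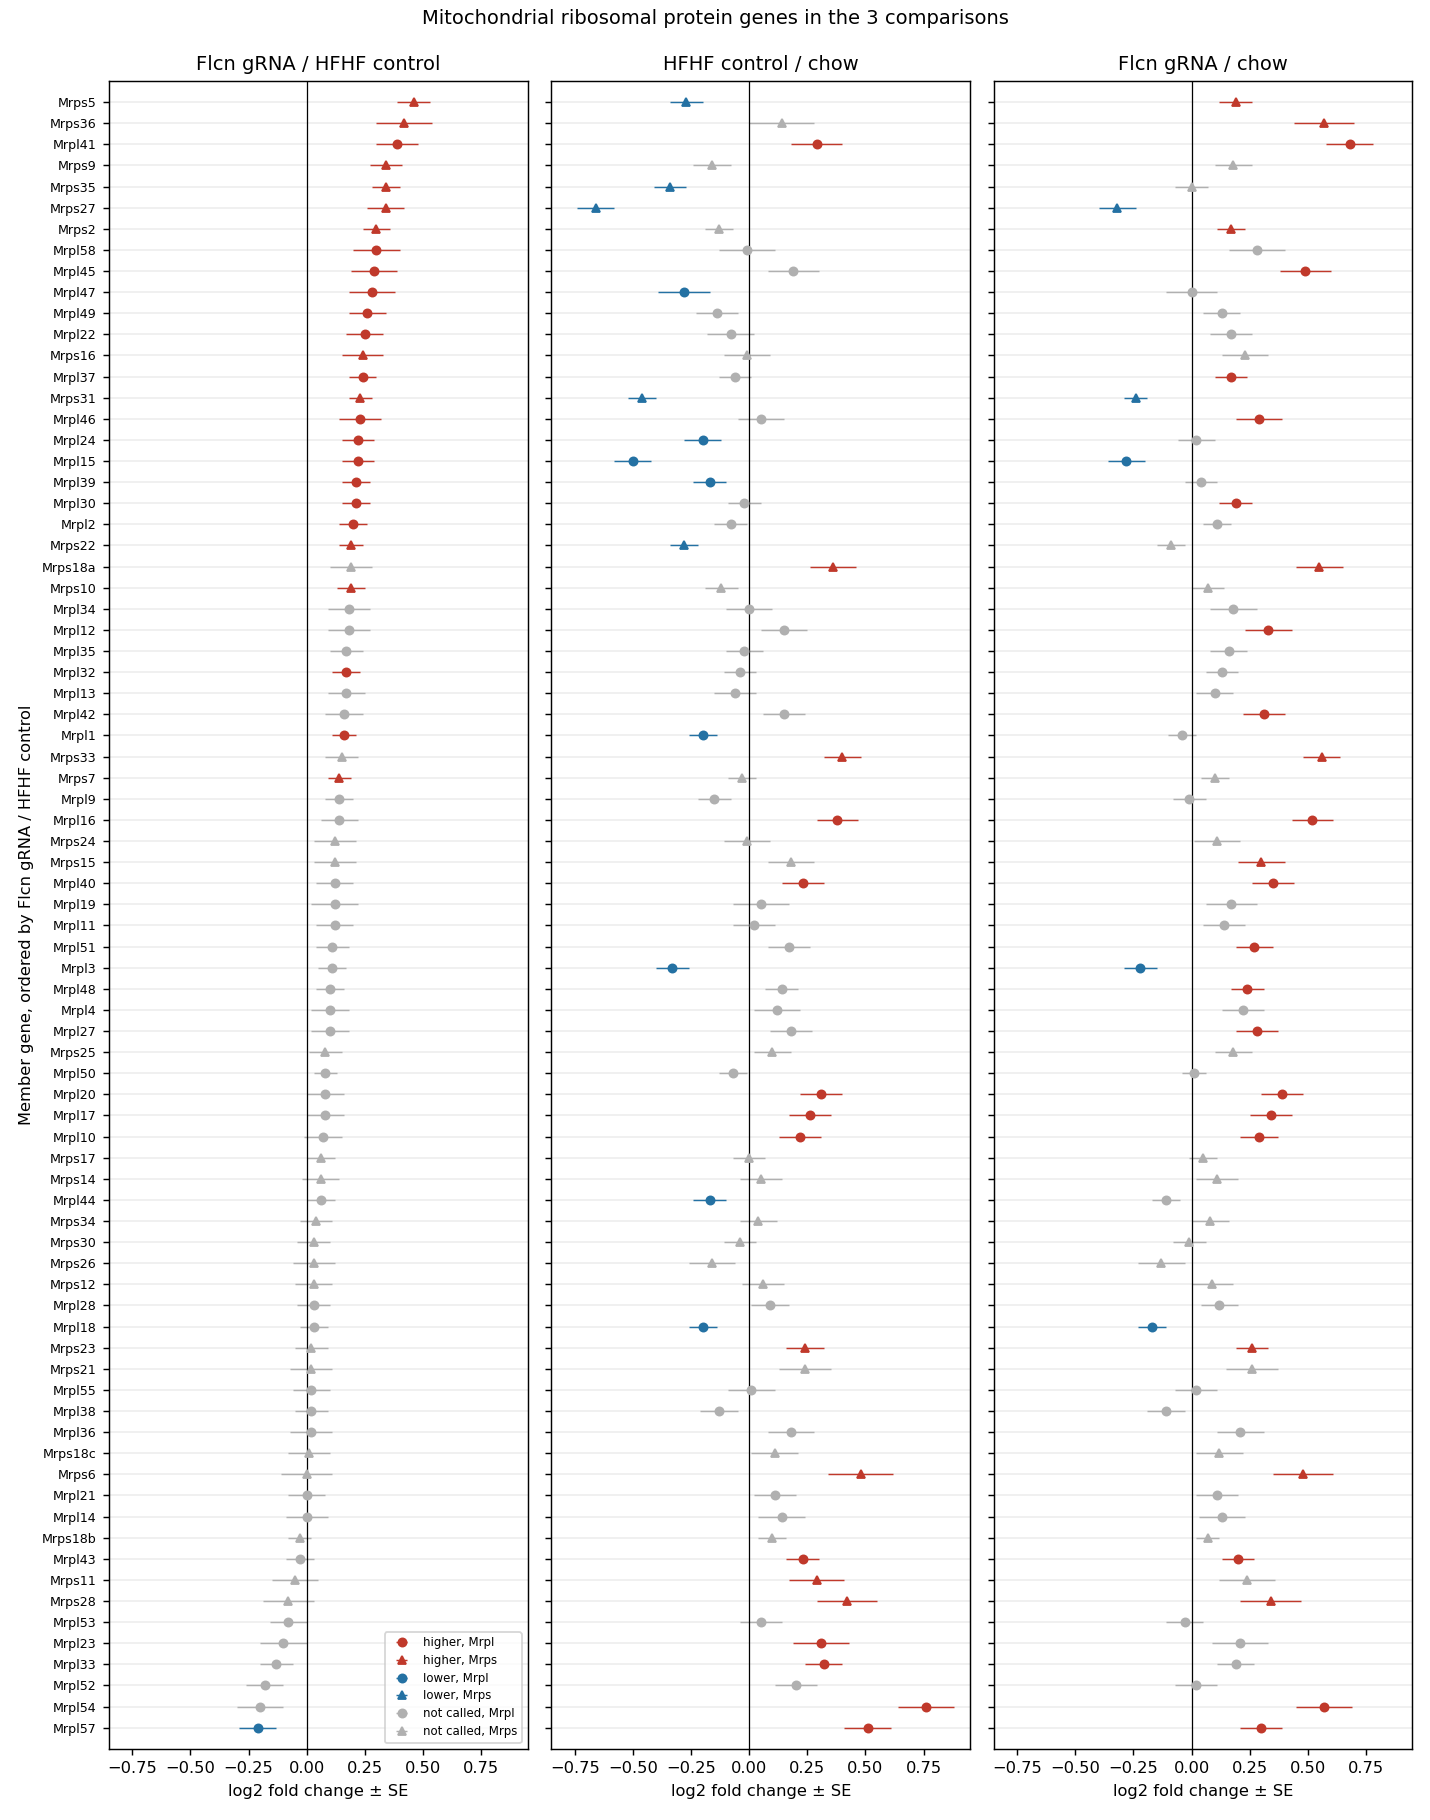
Log2 fold change (horizontal axis, point ± SE) of each of the 78 member genes (vertical axis) in 3 panels (gRNA over HFHF control, HFHF control over chow, gRNA over chow), with circles for Mrpl genes, triangles for Mrps genes, red for higher, blue for lower and grey for not called. With the gRNA 26 members were called higher and 1 lower, with the diet 17 higher and 13 lower, and against chow 27 higher and 5 lower.

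Among small-subunit genes 11 of 29 were higher with the gRNA and 0 lower. They gave 9 higher and 0 lower without gRNA replicate 8, with upper-quartile factors 7 and 0, and with library size alone 2 and 1. Mrps5 (ENSMUSG00000027374, chr2:127587222-127606829, plus strand), whose bacterial relative S5 lies where the messenger RNA enters, had the largest change. It ranged from 34.8 to 50.8 CPM (median 38.8) in gRNA libraries, against 26.7 to 30.6 CPM (median 29.5) in HFHF control, and held 35.2, 35.4, 34.8, 34.6 and 34.5 CPM in the chow libraries. Every gRNA library was above every HFHF control library, and the chow libraries lay above HFHF control as well. The log2 fold change was 0.46 with the gRNA (SE 0.07, adjusted p = 1.04e-05) and -0.27 with the diet (SE 0.07, adjusted p = 0.00391), by edgeR's quasi-likelihood test. Without gRNA replicate 8 the gRNA value was 0.40, and the call held under all 28 alternatives tried.

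Mrps35 (chr6:147042764-147073991, plus strand), a small-subunit protein specific to mitochondria, ranged from 19.3 to 25.8 CPM (median 21.7) in gRNA libraries and from 15.5 to 19.0 CPM (median 17) in HFHF control. Chow libraries held 22.7, 23.2, 22.7, 19.5 and 21 CPM. Again gRNA and HFHF control did not overlap, and gRNA and chow did. The gRNA difference was 0.34 (SE 0.06, adjusted p = 0.000164, edgeR) and the diet difference -0.34 (SE 0.07, adjusted p = 0.000298, edgeR). Between gRNA and chow it was 0.00, with a 95% interval of -0.14 to 0.15.

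Mrps31 (chr8:22411361-22429665, plus strand), also specific to mitochondria, ranged from 22.3 to 26.6 CPM (median 24.8) in gRNA libraries and 19.2 to 22.0 CPM (median 21.2) in HFHF control, and chow libraries held 29.8, 29.7, 28.5, 27.3 and 30.0 CPM. The 3 groups did not overlap, with gRNA between the others. The log2 differences were 0.23 with the gRNA (SE 0.05, adjusted p = 0.000917), -0.46 with the diet (SE 0.06, adjusted p = 3.8e-07) and -0.24 for gRNA against chow (SE 0.05, adjusted p = 0.00131), by edgeR.

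Mrps27 (ENSMUSG00000041632, chr13:99344786-99415562, plus strand), a small-subunit protein with pentatricopeptide repeats, the kind of repeat that binds RNA, showed the largest fall with the diet. It ranged from 16.4 to 21.2 CPM (median 20.2) in gRNA libraries and 13.7 to 17.8 CPM (median 15.2) in HFHF control, and chow libraries held 22.4, 20.9, 25.2, 25.6 and 26.5 CPM. HFHF control and chow did not overlap, while gRNA libraries overlapped both. The log2 difference was 0.34 with the gRNA (SE 0.08, adjusted p = 0.00101) and -0.66 with the diet (SE 0.08, adjusted p = 8.28e-07), by edgeR. An exon of a gene on the opposite strand overlaps Mrps27, so some of its reads may belong there. Ptcd3, another mitoribosomal protein with such repeats but a different symbol, averaged 40.1 ± 3.33 CPM in gRNA libraries, 30.0 ± 0.721 CPM in HFHF control and 38.3 ± 3.34 CPM in chow control, with log2 differences of 0.42 and -0.35 (adjusted p = 5.61e-06 and 6.91e-05, edgeR).

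Mrps2, whose bacterial relative is S2, ranged from 29.8 to 36.1 CPM in gRNA libraries, against 23.7 to 29.1 CPM in HFHF control, again with no overlap (log2 fold change 0.30, SE 0.06, adjusted p = 0.000151, edgeR). Libraries of gRNA and HFHF control did not overlap for 4 members, Mrps2, Mrps5, Mrps31 and Mrps35, all higher with the gRNA. That is 5.13% of members, close to the 5.04% of all genes tested whose gRNA libraries all lay higher, and 0 members lay wholly lower, against 6.01% of all genes. Mrps9 (0.34, SE 0.07, adjusted p = 0.000861, edgeR), with a bacterial relative in S9, had ranges that overlapped, 14.3 to 19.1 CPM in gRNA and 11.9 to 14.9 CPM in HFHF control. Mrps36, a protein also known as a part of the 2-oxoglutarate dehydrogenase complex, averaged 11.4 ± 2.73 CPM in gRNA libraries and 8.46 ± 0.945 CPM in HFHF control (0.42, SE 0.12, adjusted p = 0.00635, edgeR). Its highest value, 17.5 CPM, was that of gRNA replicate 8, and without it the difference was 0.30.

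Of the large-subunit genes 15 of 49 were higher with the gRNA and 1 lower. They gave 10 higher and 5 lower without gRNA replicate 8, with upper-quartile factors 3 and 4, and with library size alone 0 and 9. Mrpl41 (chr2:24974117-24975098, minus strand), specific to mitochondria, had the largest rise of them. It ranged from 12.9 to 22.0 CPM (median 16.1) in gRNA libraries and 10.9 to 13.9 CPM (median 12.6) in HFHF control, and chow libraries held 10.1, 10.5, 9.08, 9.80 and 11 CPM. It was the only member called higher both with the gRNA (0.39, SE 0.09, adjusted p = 0.00155, edgeR) and with the diet (0.29, SE 0.11, adjusted p = 0.023, edgeR). Mrpl45, which anchors the ribosome to the inner membrane beside the exit tunnel, averaged 27.2 ± 5.78 CPM in gRNA libraries and 22.2 ± 1.59 CPM in HFHF control (0.29, SE 0.10, adjusted p = 0.0194, edgeR). Replicate 8 held 39.5 CPM, and without it the difference was 0.19. Mrpl58, a peptidyl-tRNA hydrolase that frees stalled chains, averaged 19.7 ± 4.17 and 16.0 ± 1.98 CPM in gRNA and HFHF control (0.30, SE 0.10, adjusted p = 0.0267, edgeR). The Mrpl58 call was lost without gRNA replicate 8 (0.19, adjusted p = 0.0602, edgeR).

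The single lower member was Mrpl57 (ENSMUSG00000021967, chr14:57826234-57829296, plus strand), specific to mitochondria. It ranged from 7.47 to 9.97 CPM (median 7.95) in gRNA libraries and 7.92 to 10.8 CPM (median 9.52) in HFHF control, and chow libraries held 6.47, 5.58, 7.34, 6.46 and 7.16 CPM. The gRNA and HFHF control ranges overlapped, and chow lay below both. Its gRNA difference of -0.21 (SE 0.08, adjusted p = 0.0491, edgeR) kept its call in 15 of 28 alternatives. The diet difference of 0.51 (SE 0.10, adjusted p = 0.000108, edgeR) kept it in all 28.

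By place in the ribosome, 5 of 8 members at the polypeptide exit tunnel were higher with the gRNA and 0 lower, with a median of 0.21. That count was 3 without gRNA replicate 8 and 0 with upper-quartile factors, and with library size alone 0 were higher and 1 lower. At the central protuberance, the knob of the large subunit that faces the small one, 1 of 10 was higher, with a median of 0.10, and 0 without gRNA replicate 8 or with upper-quartile factors. Of the 3 stalk members 0 were called. The stalk protein Mrpl12 differed by 0.18 (95% interval -0.00 to 0.37, adjusted p = 0.111, edgeR), and Mrpl10, which anchors the stalk, by 0.07 (-0.08 to 0.23, adjusted p = 0.472, edgeR). These values were 0.09 and -0.00 without gRNA replicate 8. The last stalk member, Mrpl53, differed by -0.08 (adjusted p = 0.430, edgeR) and was called lower without that library (-0.15, adjusted p = 0.0446, edgeR). Members listed as conserved with bacteria gave 14 higher and 0 lower of 46, and members listed as specific to mitochondria 12 higher and 1 lower of 32, with medians of 0.12 and 0.11. Mrps18a and Mrps18b, although related to bacterial S18, were listed with the specific members. Without gRNA replicate 8 the conserved members gave 9 higher and 1 lower and the specific members 10 and 4, with upper-quartile factors 3 and 1, and 7 and 3, and with library size alone 1 and 4, and 1 and 6. No difference between these classes was tested.

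**Figure D2:**
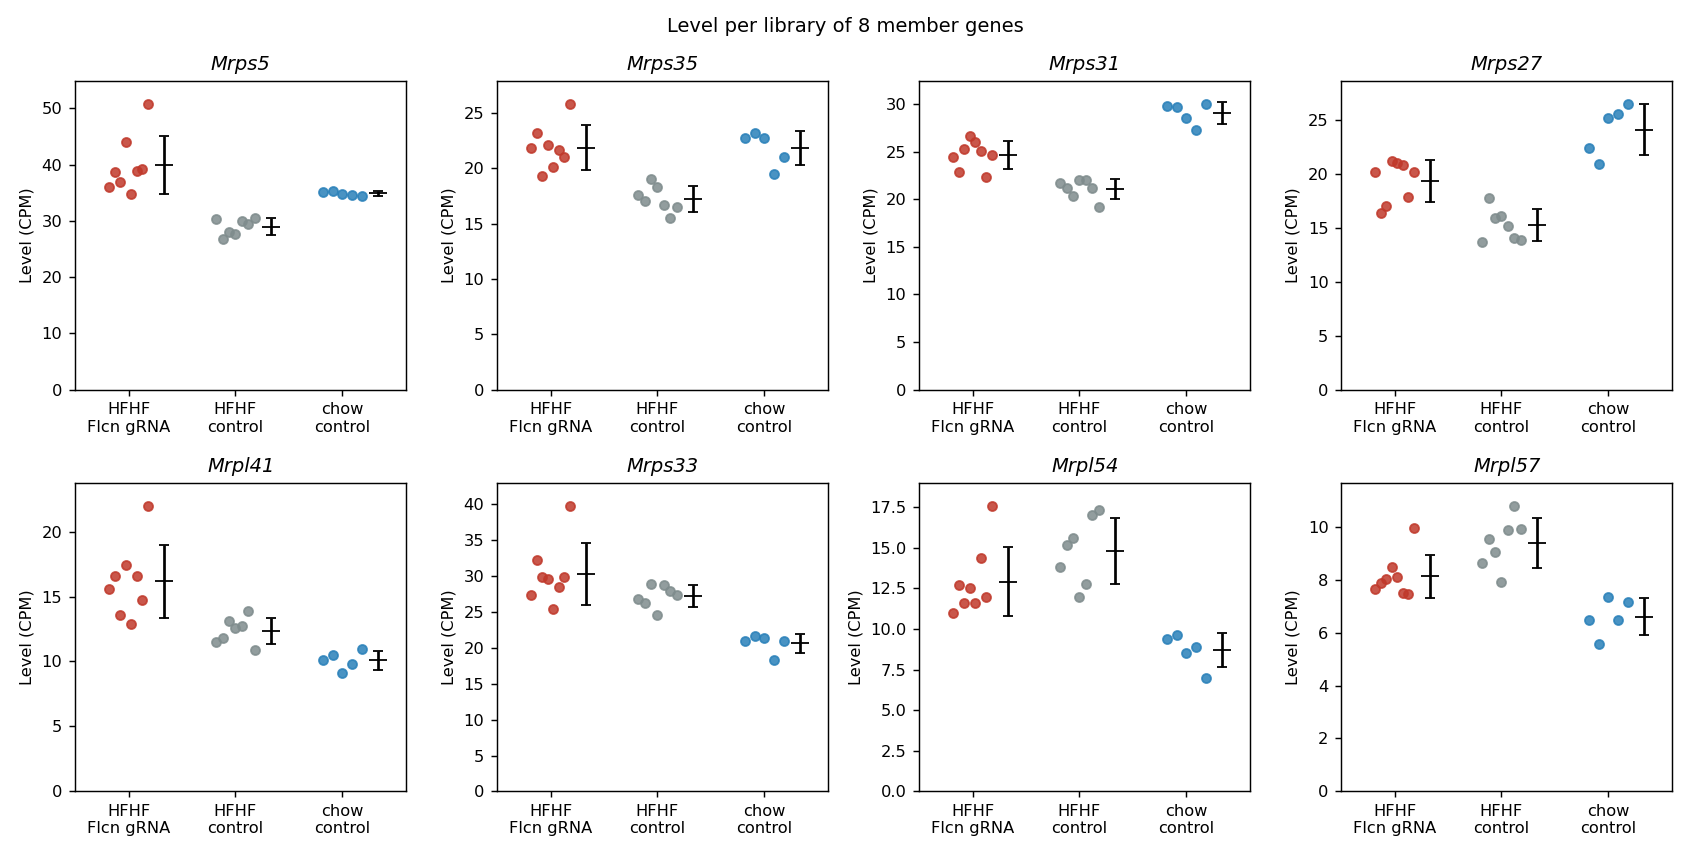
Level in CPM (vertical axis, from 0) of 8 member genes in each library (points), by group on the horizontal axis in the order HFHF Flcn gRNA, HFHF control and chow control, with the mean ± SD in black. Mrps5, Mrps35 and Mrps31 do not overlap between gRNA and HFHF control. Between HFHF control and chow Mrpl41 overlaps, and Mrps5, Mrps35, Mrps31, Mrps27, Mrps33, Mrpl54 and Mrpl57 do not.

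The second comparison, HFHF control against chow control, asks what the diet with vehicle did relative to untreated mice on chow. It shares the HFHF control libraries with the first, so a high or low HFHF control value moves both in opposite ways. Here 17 members were higher, 13 lower and 48 not called. In all 38.5% of members were called, under the 57.0% of all genes tested. Higher calls were 21.8% of members against 28.1% of all genes, and lower calls 16.7% against 28.9%. Changes ran from -0.66 to 0.76, and the median was 0.05, against -0.01 for all genes. The share of all genes whose libraries do not overlap was counted for gRNA against HFHF control only. A lack of overlap with chow is therefore given per gene and not read as a trait of the members. With upper-quartile factors the counts were 29 higher and 7 lower, and with library size alone 57 and 3. Without gRNA replicate 8, which enters the shared fit, they were 28 and 11. All genes gave 4619 higher and 2991 lower, 6595 and 1604, and 4196 and 3671 in the same order. The members' higher share lay below that of all genes in the reported fit, but above it in each of these settings. Library size alone moved the median of all genes by 0.28, and leaving out gRNA replicate 8 moved it by 0.03. Leaving out gRNA replicate 1, 2, 3 or 5 instead moved it by 0.03 as well. The members' median was 0.09 each time, so this shift of the diet values was not particular to replicate 8.

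Among large-subunit genes 11 were higher and 8 lower with the diet, and 19 and 6 without gRNA replicate 8, 19 and 2 with upper-quartile factors, and 37 and 1 with library size alone. Mrpl54 (chr10:81264713-81266934, minus strand), specific to mitochondria, rose the most. It ranged from 11 to 17.6 CPM (median 12.3) in gRNA libraries and 12.0 to 17.3 CPM (median 15.2) in HFHF control, and chow libraries held 9.41, 9.62, 8.55, 8.91 and 7.0 CPM. Both HFHF groups lay wholly above chow, and they overlapped each other. The diet difference was 0.76 (SE 0.12, adjusted p = 1.17e-05, edgeR), and gRNA against HFHF control was -0.20 (SE 0.10, adjusted p = 0.13, edgeR), a value that passed without gRNA replicate 8 (-0.28, adjusted p = 0.0178, edgeR). Mrpl16, related to bacterial L16, averaged 33.1 ± 2.32 CPM in HFHF control and 25.5 ± 2.08 CPM in chow (0.38, SE 0.09, adjusted p = 0.00141, edgeR), and its gRNA libraries averaged 36.4 ± 5.64 CPM.

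Mrpl15, related to bacterial L15, fell the most of the large-subunit genes. It ranged from 32.9 to 47.7 CPM (median 39.3) in gRNA libraries and 30.8 to 39.1 CPM (median 33.7) in HFHF control, and chow libraries held 48.9, 50.2, 50.6, 45.7 and 43.9 CPM. HFHF control and chow did not overlap (-0.50, SE 0.08, adjusted p = 1.13e-05, edgeR), and gRNA was higher than HFHF control by 0.22 (SE 0.07, adjusted p = 0.0144, edgeR) and differed from chow by -0.28 (SE 0.08, adjusted p = 0.00526, edgeR). Mrpl3, whose bacterial relative reaches towards the peptidyl transferase centre, averaged 14.9 ± 1.38 CPM in HFHF control and 18.7 ± 0.795 CPM in chow (-0.33, SE 0.07, adjusted p = 0.000329, edgeR). With the gRNA it averaged 16.1 ± 1.02 CPM, and the difference from HFHF control was 0.11 (95% interval -0.01 to 0.24, adjusted p = 0.156, edgeR). Mrpl3 overlaps exons of other genes on both strands. Mrpl44, a protein with a fold of the ribonuclease III family, differed by -0.17 with the diet (SE 0.07, adjusted p = 0.0306, edgeR). That call held in 8 of 28 alternatives and was lost without gRNA replicate 8 (-0.14, adjusted p = 0.0809, edgeR).

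Among small-subunit genes 6 were higher and 5 lower with the diet, and 10 and 5 with upper-quartile factors and 20 and 2 with library size alone. Mrps33, specific to mitochondria, averaged 27.2 ± 1.55 CPM in HFHF control and 20.6 ± 1.35 CPM in chow control, with no overlap (0.40, SE 0.08, adjusted p = 0.000349, edgeR). In gRNA libraries it averaged 30.3 ± 4.33 CPM, which overlapped HFHF control. Mrps6, related to bacterial S6, averaged 7.25 ± 0.709 CPM in HFHF control and 5.19 ± 0.886 CPM in chow (0.48, SE 0.14, adjusted p = 0.00451, edgeR), but shares exons on its own strand with Slc5a3, a transporter gene, so the reads of both cannot be told apart with certainty. Mrps28 averaged 12.4 ± 2.08 CPM in HFHF control and 9.23 ± 0.683 CPM in chow (0.42, SE 0.13, adjusted p = 0.00975, edgeR). Mrps22, specific to mitochondria, ranged from 14.7 to 19.2 CPM in HFHF control and from 19.0 to 21.8 CPM in chow (-0.28, SE 0.06, adjusted p = 0.000561, edgeR).

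Mrps18a, Mrps18b and Mrps18c are paralogs related to bacterial S18. Mrps18a averaged 25.3 ± 4.71 CPM in gRNA libraries, 22.2 ± 1.34 CPM in HFHF control and 17.3 ± 0.743 CPM in chow, and rose with the diet (0.36, SE 0.10, adjusted p = 0.00415, edgeR). Mrps18b averaged 34.6 ± 1.26, 35.4 ± 1.74 and 33.0 ± 2.65 CPM in gRNA, HFHF control and chow libraries. Mrps18c averaged 23.0 ± 4.02, 22.7 ± 1.74 and 21.1 ± 1.97 CPM in the same groups. Neither Mrps18b nor Mrps18c passed in the reported fit of any of the 3 comparisons, with diet intervals of -0.01 to 0.22 and -0.11 to 0.33. Mrps18b was not called with the diet in 17 of 28 alternatives, and without gRNA replicate 8 it was called higher (0.14, adjusted p = 0.0359, edgeR). The difference between the paralogs was not tested.

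Set side by side, 10 members were called higher with the gRNA and lower with the diet, Mrpl1, Mrpl15, Mrpl24, Mrpl39, Mrpl47, Mrps5, Mrps22, Mrps27, Mrps31 and Mrps35. Another 15 were higher with the gRNA and not called with the diet, and 15 were higher with the diet and not called with the gRNA. The count called in neither was 33. Both comparisons use the same HFHF control libraries, so these counts are not independent of each other. The share of all genes tested in each of these classes was not counted, so the counts are not read as a trait of the members. Some of the 10 sat near the threshold. The diet call held in 6 of 28 alternatives for Mrpl39, 12 for Mrpl24 and 13 for Mrpl47. Without gRNA replicate 8 Mrpl39 lost the diet call (adjusted p = 0.0981, edgeR) and Mrpl47 the gRNA call (adjusted p = 0.0583, edgeR).

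The last comparison, gRNA against chow control, joins the diet with the guide and its virus. Here 27 members were higher, 5 lower and 46 not called, or 41.0% called against 42.6% of all genes tested. Higher calls were 34.6% against 20.9% of all genes, and lower calls 6.41% against 21.7%. The median was 0.17, against 0.00 for all genes, with a range of -0.32 to 0.68. With upper-quartile factors the counts were 35 higher and 4 lower, with library size alone 48 and 2, and without gRNA replicate 5 the higher count was 41. All genes gave 3209 higher and 2558 lower with upper-quartile factors, and 3739 and 1872 with library size alone. Mrpl41 stood the highest, at 16.2 ± 2.83 CPM in gRNA libraries and 10.1 ± 0.713 CPM in chow, with no overlap (0.68, SE 0.10, adjusted p = 2.01e-05, edgeR). Mrps36 (0.57, SE 0.13), Mrpl54 (0.57, SE 0.12), Mrps33 (0.56, SE 0.08), Mrps18a (0.55, SE 0.10) and Mrpl16 (0.52, SE 0.09) followed. Also called were Mrpl45 (0.49, SE 0.11) and the stalk genes Mrpl12 (0.33, SE 0.10) and Mrpl10 (0.29, SE 0.08). The 5 lower members were Mrps27 (-0.32), Mrpl15 (-0.28), Mrps31 (-0.24), Mrpl3 (-0.22) and Mrpl18 (-0.17), whose bacterial relative binds the 5S RNA.

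**Figure D3:**
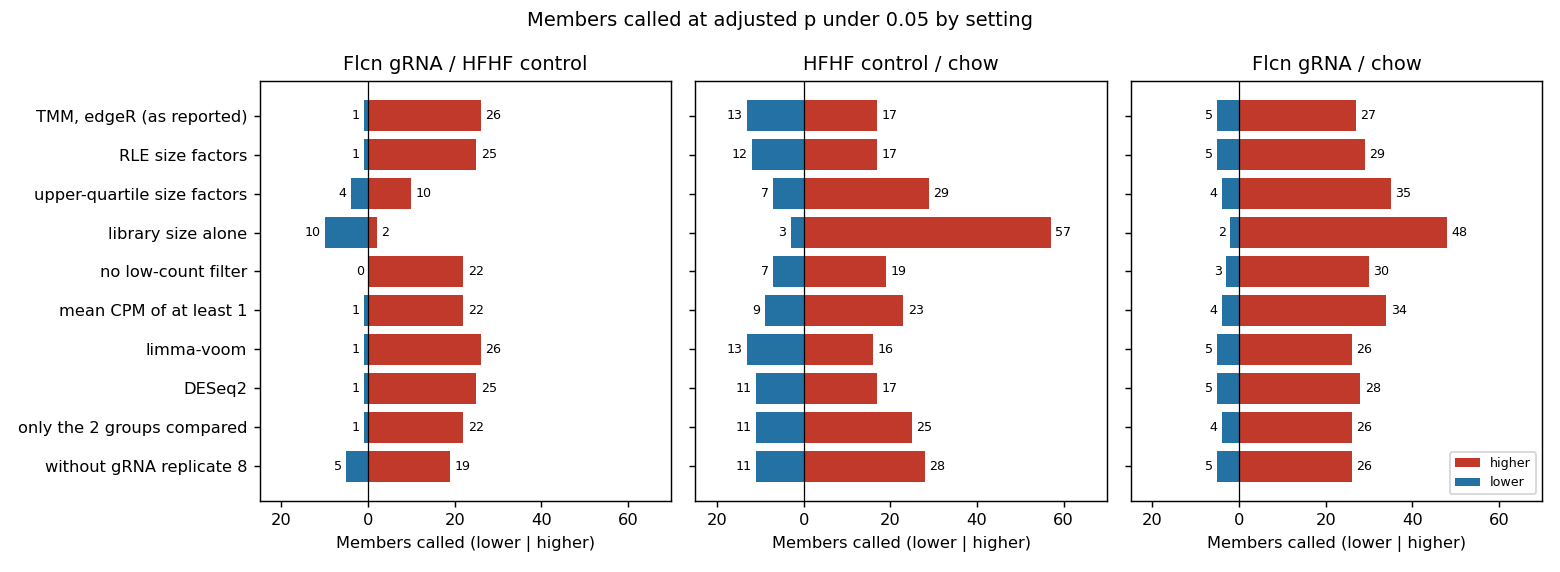
Members called higher (red, to the right) and lower (blue, to the left) in each comparison under the reported settings and 9 alternatives, with counts at the bar ends. With library size alone the gRNA comparison turns to 2 higher and 10 lower, and the others to 57 and 3, and 48 and 2.

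Summed over all members, the level was 1631 to 2250 CPM in gRNA libraries (mean 1858 ± 186), 1594 to 1799 CPM in HFHF control (1699 ± 75.6) and 1664 to 1696 CPM in chow (1683 ± 14.6). The 3 groups overlapped. The highest sum, 2250 CPM, was that of gRNA replicate 8, and the other gRNA libraries averaged 1802 ± 106 CPM and reached 1923 CPM. Replicate 8 was the highest gRNA library for 60 of 78 members and the highest of all 20 libraries for 55. The share of all genes tested with this library highest was not counted, so these counts are not read as a trait of the members. In replicate 8 the 15 mitochondrial-genome transcripts summed to 288764 CPM, while the other gRNA libraries held 144134 to 177167 CPM. As a description, members tended to vary together within groups. The median pairwise correlation was 0.43 over the 20 libraries after centring each group, and 0.27 without replicate 8. No value for other genes is set beside these correlations.

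**Figure D4:**
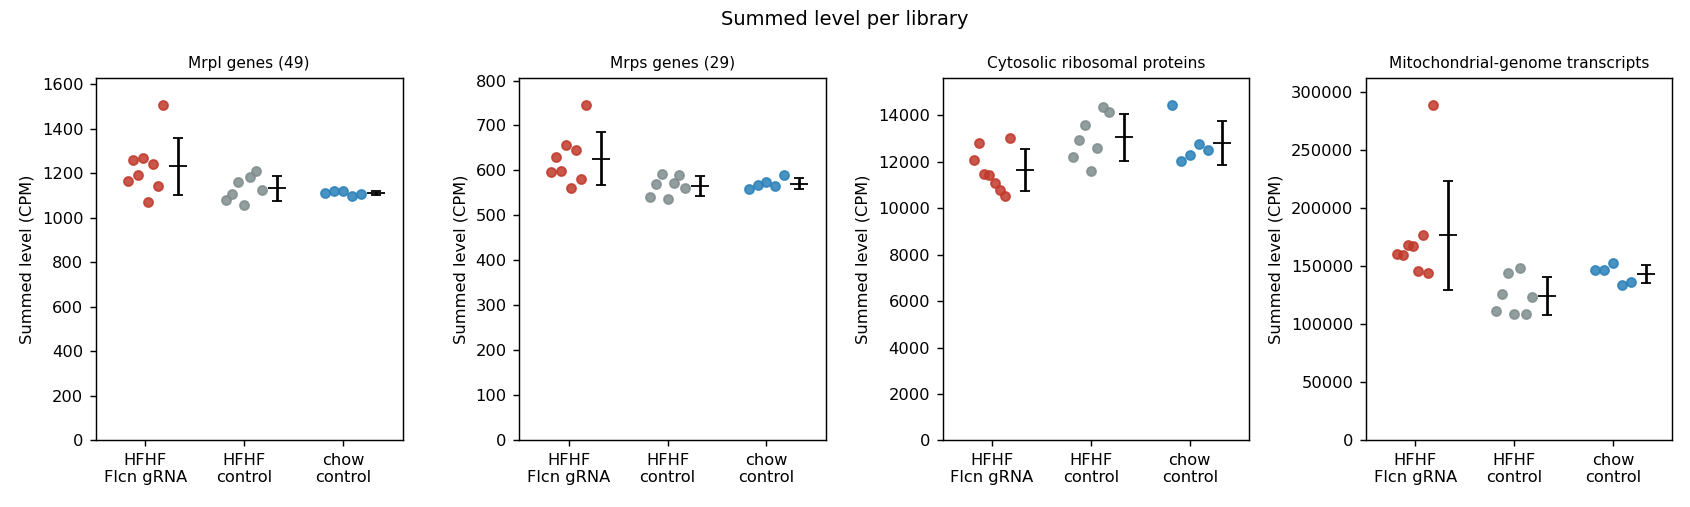
Summed level in CPM (vertical axes, from 0) of Mrpl genes, Mrps genes, cytosolic ribosomal protein genes and mitochondrial-genome transcripts in each library (points), by group with the mean ± SD in black. The gRNA library at 1506 CPM for Mrpl genes and 288764 CPM for mitochondrial-genome transcripts is replicate 8.

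Fold changes varied with transcript length, a split chosen after the values were seen. The 25 members with transcripts up to 1000 nt had median log2 changes of 0.03 with the gRNA and 0.18 with the diet, and 8 were higher and 0 lower with the diet. The 17 members over 3000 nt had medians of 0.12 and -0.04, and 1 was higher and 6 lower with the diet. The 14 members of 1500 to 3000 nt had the highest gRNA median, 0.22, with 9 higher and 1 lower. Across the 78 genes Spearman's rho with length was 0.31 for the gRNA and -0.47 for the diet, against 0.03 and -0.15 over 12778 genes tested with a length. Genes up to 1000 nt in the whole table also had a positive diet median, 0.17, and a gRNA median of -0.04. With the diet, 236 of these 654 genes were higher and 66 lower. Of the 6758 tested genes over 3000 nt, 1744 were higher and 2389 lower with the diet. Of the 4254 tested genes of 1500 to 3000 nt, 830 were higher and 864 lower with the gRNA. Genes are not independent replicates, and the part of length in the calls was not tested.

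**Figure D5:**
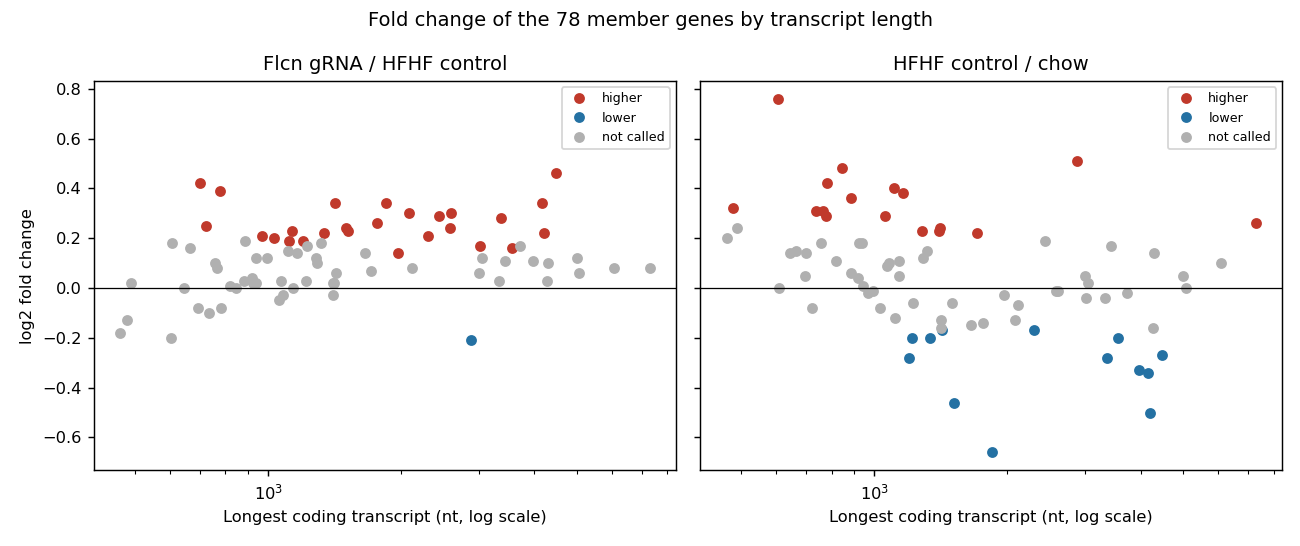
Log2 fold change (vertical axis) against the longest coding transcript in nt (horizontal axis, log scale) for the 78 member genes, with gRNA against HFHF control on the left and HFHF control against chow on the right, and red for higher, blue for lower and grey for not called. With the diet, members up to 1000 nt were called higher 8 times and lower 0 times, and members over 3000 nt 1 and 6 times. Of 654 tested genes up to 1000 nt, 236 were higher and 66 lower with the diet. Over 3000 nt, 1744 of 6758 tested genes were higher and 2389 lower.

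Exons of 33 members overlap those of another annotated gene, 28 on the opposite strand and 8 on the same strand. Use of strand in counting was not stated, so reads of such genes can be shared. Mrpl46 and Mrps11, neighbours on chromosome 7, overlap each other. Among the 45 members with no overlap, 19 were higher and 1 lower with the gRNA, and 12 were higher and 7 lower with the diet. A protein-coding neighbour began within 1000 bases in the opposite direction for 18 members.

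Lists of other genes for mitochondrial gene expression were set beside the members in the same fit. Of 15 genes listed as mitochondrial translation factors 12 were higher with the gRNA and 0 lower, with a median of 0.31. With the diet 1 was higher and 9 lower. The list was broad and took in Mief1, Letm1 and Oxa1l, which are not translation factors in the strict sense. Mief1 was among the genes called, at 0.29 with the gRNA and -0.71 with the diet. Gfm2, a factor for recycling ribosomes, averaged 47.5 ± 2.28 CPM in gRNA libraries, 34.1 ± 1.94 CPM in HFHF control and 45.8 ± 1.13 CPM in chow (gRNA 0.48, SE 0.05, adjusted p = 8.68e-08; diet -0.42, SE 0.05, adjusted p = 5.01e-07; edgeR). The elongation factor gene Gfm1 averaged 109 ± 9.37 CPM in gRNA libraries, 80.7 ± 4.70 CPM in HFHF control and 82.6 ± 4.94 CPM in chow (gRNA 0.44, SE 0.06, adjusted p = 4.44e-06, edgeR). The initiation factor gene Mtif2 averaged 37.0 ± 1.51 CPM in gRNA libraries, 28.9 ± 1.32 CPM in HFHF control and 36.9 ± 2.93 CPM in chow (gRNA 0.36, SE 0.05, adjusted p = 6.48e-06, edgeR). Without gRNA replicate 8 the 15 listed genes again gave 12 higher and 0 lower, with upper-quartile factors 11 and 0, and with library size alone 5 and 0. With the diet they gave 4 higher and 3 lower with library size alone. The difference between lists was not tested.

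Of 26 genes for assembly of the mitochondrial ribosome and modification of its RNA, 7 were higher with the gRNA and 0 lower, and 1 was higher and 8 lower with the diet. They included the assembly GTPase gene Mtg1, at 11.6 ± 1.18 CPM in gRNA libraries and 9.50 ± 0.820 CPM in HFHF control (0.29, SE 0.07, adjusted p = 0.00292, edgeR), and Fastkd2, which binds the large ribosomal RNA, at 18.1 ± 1.59 CPM in gRNA libraries and 15.1 ± 0.345 CPM in HFHF control (0.26, SE 0.06, adjusted p = 0.00108, edgeR). Of 17 mitochondrial aminoacyl-tRNA synthetases 6 were higher with the gRNA and 0 lower, and of 18 genes of mitochondrial DNA and RNA upkeep 8 were higher and 0 lower. With the diet the synthetases gave 1 higher and 4 lower, and the upkeep genes 0 higher and 8 lower. The diet direction of these 3 lists rested on scaling, since with library size alone the assembly genes gave 8 higher and 0 lower, the synthetases 6 and 2, and the upkeep genes 3 and 1. With the gRNA library size alone left 1 higher assembly gene, 2 higher and 2 lower synthetases, and 5 higher upkeep genes. Of the 5 mitoribosomal proteins with other symbols, Ptcd3 alone was called. The RNA of the mitochondrial genome itself, the ribosome's own RNA and templates, gave 14 higher and 0 lower of 15 with the gRNA, with a median of 0.51. Without gRNA replicate 8 these were 12 and 0, with a median of 0.38. The gRNA counts were 12 and 0 with upper-quartile factors and 11 and 0 with library size alone. With the diet 0 were called, but without gRNA replicate 8 in the shared fit 6 were lower and 0 higher, and with library size alone 2 were higher. These transcripts make up a share of the library that differs between groups, at 144134 to 288764 CPM in gRNA libraries, 108547 to 148384 CPM in HFHF control and 134225 to 152824 CPM in chow.

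Nuclear subunits of respiratory complex I are the partners of complex I subunits made by this ribosome. Genes listed as such gave 25 higher and 0 lower of 37 with the gRNA (median 0.27), and 2 higher and 5 lower with the diet. The list was chosen by symbol, a rule that admits names such as Ndufa4 and Ndufa4l2, which are not complex I subunits. The list's higher count with the gRNA was 19 without gRNA replicate 8 and 16 with upper-quartile factors. With library size alone it was 11, with 1 lower. The diet split turned with the setting, to 7 higher and 6 lower without gRNA replicate 8, 7 and 1 with upper-quartile factors, and 24 and 0 with library size alone. Ribosomal proteins of the cytosol moved the other way, with 0 higher and 43 lower of 82 tested with the gRNA (median -0.17), 64 lower with upper-quartile factors, 80 with library size alone and 60 without gRNA replicate 8. Rps12, for example, averaged 91.5 ± 8.61 CPM in gRNA libraries and 120.0 ± 16.5 CPM in HFHF control (-0.39, SE 0.08, adjusted p = 0.000492, edgeR). With the diet the cytosolic list gave 9 higher and 3 lower, and 17 and 3 without gRNA replicate 8, 28 and 0 with upper-quartile factors, and 74 and 0 with library size alone.

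Among 12 regulators of mitochondrial genes 3 were higher and 1 lower with the gRNA, and 1 was higher and 3 lower with the diet. With library size alone these became 2 and 4 with the gRNA and 4 and 1 with the diet. The coactivator gene Ppargc1a averaged 21.8 ± 6.15 CPM in gRNA libraries, 8.41 ± 2.30 CPM in HFHF control and 10.5 ± 3.56 CPM in chow (gRNA 1.37, SE 0.20, adjusted p = 2.79e-05, edgeR). Gabpa, which encodes the ETS factor of GABP, averaged 47.7 ± 4.75, 36.5 ± 4.01 and 55.5 ± 4.03 CPM in gRNA, HFHF control and chow libraries (gRNA 0.39, SE 0.07, adjusted p = 0.000218, edgeR). The receptor gene Esrra averaged 14.6 ± 2.16 CPM in gRNA and 10.9 ± 1.75 CPM in HFHF control (0.42, SE 0.10, adjusted p = 0.00247, edgeR). Tfe3, a MiT/TFE factor, averaged 17.1 ± 3.05 CPM in gRNA and 21.7 ± 1.34 CPM in HFHF control (-0.35, SE 0.09, adjusted p = 0.00351, edgeR).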

How the data were processed

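Messenger RNA was sequenced in 20 liver libraries (KAPA mRNA HyperPrep, adapters with molecular identifiers, 51-cycle single-end reads, per the labels' protocols). The authors' deposited table holds expected counts per gene, mostly whole numbers but with some fractions. Per the submitters' processing notes the build was GRCm38. The sources used here do not state the aligner, counter, annotation, or use of strand and identifiers. The table had 32422 features, of which 22 construct sequences (2.2e-06% of counts) were left out, and 1 column that matched no label was not used. Gene names came from GENCODE M21, which named 32325 genes.

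Expected counts were rounded. edgeR 4.0.16 in R 4.3.3 (filterByExpr, TMM, robust quasi-likelihood fit of the 3 groups, Benjamini-Hochberg adjusted p under 0.05 over 13667 genes) gave all log2 fold changes. Levels are TMM-scaled CPM, mean ± SD. Alternatives were other size factors, filters, limma 3.58.1, DESeq2 1.42.0, fits of 2 groups, and each library left out.

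Members and lists were chosen with earlier results of these data known. Members named are, in each comparison, the 6 largest rises and falls past the threshold and the 3 smallest p each way, with Mrpl10, Mrpl12, Mrpl44, Mrpl45, Mrpl58, Mrps18a to c and Mrps36, and the 3 highest and lowest levels per length. Mrpl33, Mrpl53 and further members named beside a count were chosen after their values were seen. Other lists name up to 4 genes of smallest p with the gRNA and 2 with the diet. From the cytosolic list, chosen by symbol, 11 genes that are no ribosomal proteins, such as the S6 kinases, were removed after the data were seen. Sequences are from RefSeq.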

Additional observations from a re-analysis of the deposited data

Results flagged for a closer look

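Of 105 groups of libraries examined for a library far from the others, 12 had one, and chance alone flags about 1 in 20. gRNA replicate 8 was far above the other gRNA libraries in 8 of them. Its summed level of the members was 2250 CPM, against at most 1923 CPM in the other gRNA libraries. For the large-subunit genes alone it was 1506 CPM, against at most 1267 CPM, and for mitochondrial-genome transcripts 288764 CPM, against at most 177167 CPM. Among single members it held 17.5 CPM of Mrps36, 9.97 CPM of Mrpl57, 48.7 CPM of Mrpl18, 92.7 CPM of Mrpl12 and 29.5 CPM of Mrpl58, where the next gRNA library held 12.9, 8.49, 41.5, 68.1 and 20.5 CPM. Without this library 7 members were no longer called higher with the gRNA (Mrpl22, Mrpl32, Mrpl46, Mrpl47, Mrpl58, Mrps7 and Mrps16), and 4 were newly called lower (Mrpl33, Mrpl52, Mrpl53 and Mrpl54).

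The other libraries far from their group concerned single members. gRNA replicate 5 held 31.8 CPM of Mrps18b, against 34.3 to 36.0 CPM in the rest of its group. HFHF control replicate 6 held 17.4 CPM of Mrpl19, against 12.0 to 13.7 CPM. Among chow libraries, replicate 4 held 18.3 CPM of Mrps33, against 20.9 to 21.7 CPM, and replicate 2 held 21.8 CPM of Mrpl45, against 18.5 to 19.0 CPM.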

How the results depend on the processing

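No paired analysis was possible because the labels give no replicate numbers, and the numbers used here follow accession order. RLE factors, limma-voom, DESeq2, the stricter filter and fits of 2 groups kept the members' counts within 1.5 times of those reported. With upper-quartile factors the gRNA comparison gave 10 higher and 4 lower members and the diet comparison 29 and 7. With library size alone the members gave 2 higher and 10 lower with the gRNA, 57 and 3 with the diet, and 48 and 2 for gRNA against chow. All genes then gave 1028 higher and 5149 lower, 6595 higher and 1604 lower, and, for gRNA against chow, 1872 lower. The diet differences of Mrps5, Mrpl18 and Mrpl44 turned to 0.01, 0.07 and 0.11, none past the threshold. The size factors themselves differ by construction. Without a filter on low counts 0 members were lower with the gRNA, 7 with the diet and 3 for gRNA against chow, where 22795 genes were tested. Over the 45 members without exon overlap, a count added after seeing the data, 7 were lower with the diet and 2 for gRNA against chow.

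Leaving out each library in turn gave 19 to 28 higher and 0 to 5 lower members with the gRNA, 14 to 28 and 8 to 14 with the diet, and 24 to 41 and 3 to 5 for gRNA against chow. All genes gave 2315 to 2647 higher and 2312 to 2740 lower with the gRNA. The lower count with the gRNA rests on Mrpl57 near the threshold: it was 5 without gRNA replicate 8, 2 without HFHF control replicate 4, and 0 without any of gRNA replicates 1 to 7 or HFHF control replicates 2, 3, 5, 6 and 7. The diet's higher count was 28 without gRNA replicate 8, and its lower count 8 without chow replicate 5. For gRNA against chow the higher count was 41 without gRNA replicate 5 and the lower count 3 without chow replicates 1, 2 or 3. The members' median relative to all genes stayed 0.07 to 0.12 with the gRNA, 0.03 to 0.07 with the diet and 0.12 to 0.18 against chow. The cause of these changes was not tested. Depth was 13974379 to 19586576 counts per library, and SEs of members were 0.05 to 0.14.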
